A study of Mus musculus with 6 samples.

Results

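The 27 genes described here encode the enzymes of cholesterol and fatty acid synthesis together with their best known regulators: 7 genes of the mevalonate and isoprenoid steps, 10 of the squalene and sterol steps, 2 of sterol sensing and transport (Insig1, Stard4), 6 of fatty acid synthesis, and Srebf1 and Srebf2. They were listed by gene name, with earlier results of these data known, and each was represented by its probe of highest mean signal over the 6 arrays. No probe on the array carried a matching RefSeq accession for Idi1, the isopentenyl diphosphate isomerase, so 26 genes were measured, out of 19657 features tested (a feature is a gene, or a probe target with no gene symbol). All 26 were above background on all 6 arrays. The arrays compared 3 Rap1 knockout cultures with 3 wild-type cultures of mouse embryonic fibroblasts, by 1-colour hybridisation of Cy3-labelled cRNA made from total RNA. Rap1 here is the telomere-binding protein encoded by Terf2ip, whose exon 3 was built to be removed by Cre. Both groups had been infected with SV40 large T antigen, which immortalises the cells, and with Cre recombinase, and both were grown in puromycin. The labels do not say whether the wild-type cells carried floxed alleles, nor which embryos, how many clones or which embryonic age the cultures came from. The p-values therefore measure only the spread between these samples, which may be technical.

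Cholesterol is made from acetyl-CoA through mevalonate, isoprenoid units and squalene, and a last series of reactions turns lanosterol into cholesterol; fatty acids are made from the same acetyl-CoA. Most of these genes carry sterol regulatory elements and are switched on by the SREBP transcription factors, SREBP-2 mainly for sterol genes and SREBP-1c mainly for fatty acid genes. When membrane sterol is low, Scap escorts the SREBP precursors from the endoplasmic reticulum to the Golgi for cleavage, and Insig proteins hold Scap back when sterol is plentiful. Dividing fibroblasts in culture need both pathways for membranes.

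Signals are given as log2 of the processed signal relative to the 75th percentile of the same array, so 0 stands at that percentile; differences are knockout minus wild type on the same scale. Terf2ip read -7.91, -9.08 and -8.11 on the knockout arrays, none above background, against -1.75, -1.65 and -1.81 on the wild-type arrays (adjusted p = 0.00794 by limma on these signals). With its knockout signals raised to the dimmest signal above background, Terf2ip was at least 37.7-fold lower, a bound that was not itself tested. Where its probe lies relative to exon 3 was not examined. Between 61.7% and 67.1% of probes were above background on an array. Knockout and wild-type array 1 shared a slide, and the other 4 arrays shared a second one. Wild-type arrays 2 and 3 were much more alike than any other pair: the SD of their log2 difference over probes was 0.19, against 0.69 to 1.06 for the other pairs and 0.08 from repeat spots, a noise that leaves out labelling and hybridisation. The labels give them as 2 samples and they were counted so, but they may come from 1 culture or extraction, and results with the pair averaged as 1 sample are given where they change a count. Of 10 fibroblast markers, knockout array 1 was the lowest knockout array for 4 (Pdgfra, Thy1, Dcn and Lum), the highest for 3 (Col1a2, Pdgfrb and Fn1) and between the others for 3, while knockout array 3 was also the lowest for 4. Dcn was at -5.47 on knockout array 1 and Col1a2 at 7.28, against 4.97 and 2.19 for Dcn and 4.99 and 5.67 for Col1a2 on knockout arrays 2 and 3. Of the 10 markers, 9 were above background on all 6 arrays (Lum was on 2 of 3 knockout arrays). The summed linear signal of the 10, in units of the 75th percentile, spanned 286 to 471 on knockout arrays and 452 to 568 on wild-type arrays. Their difference was below 0 for 7 and above 0 for 3, with a median of -1.02, and none passed an adjusted p of 0.05 by limma. Pdgfra, Thy1 and Fn1 were lower on all 3 knockout arrays, as were 5.89% of all features. In bulk RNA, fewer cells of a type and less RNA per cell cannot be told apart.

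None of the 26 genes differed between knockout and wild type by limma at an adjusted p of 0.05, where 0.0102% of all features did. Their adjusted p-values lay between 0.474 and 0.974. With wild-type arrays 2 and 3 averaged as 1 sample, none of the 26 passed even at an unadjusted p of 0.05, where 3.52% of all features did. With the 6 arrays counted singly, 3 of the 26 passed that unadjusted threshold (11.5%): Msmo1 and Stard4, lower in knockout cells, and Srebf1, higher. Of all features 10.3% passed, 4.66% lower and 5.61% higher, and the share of these genes is close to that. The difference was below 0 for 18 genes and above 0 for 8, whereas 44.6% of all features were below 0. The median difference was -0.10 over the 26 genes and 0.07 over all features, with an interquartile range of -0.37 to 0.21 for the genes and -0.32 to 0.37 for all features. When dim probes were kept as well, the median of all features was -0.08 and that of the genes was unchanged. The median of the genes moved with single arrays: it was -0.29 without knockout array 2, 0.01 without knockout array 3, -0.21 without wild-type array 1 and -0.05 without wild-type array 3. The knockout and wild-type arrays did not overlap for 6 of the 26 genes (23.1%, against 17.3% of all features). Msmo1, Hsd17b7, Sc5d, Insig1 and Stard4 were lower on all 3 knockout arrays (19.2%, against 5.89% of all features), and Srebf1 was higher (11.4% of all features were). A single gene, Elovl6, differed by at least 2-fold, as did 10.2% of all features.

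**Figure D1:**
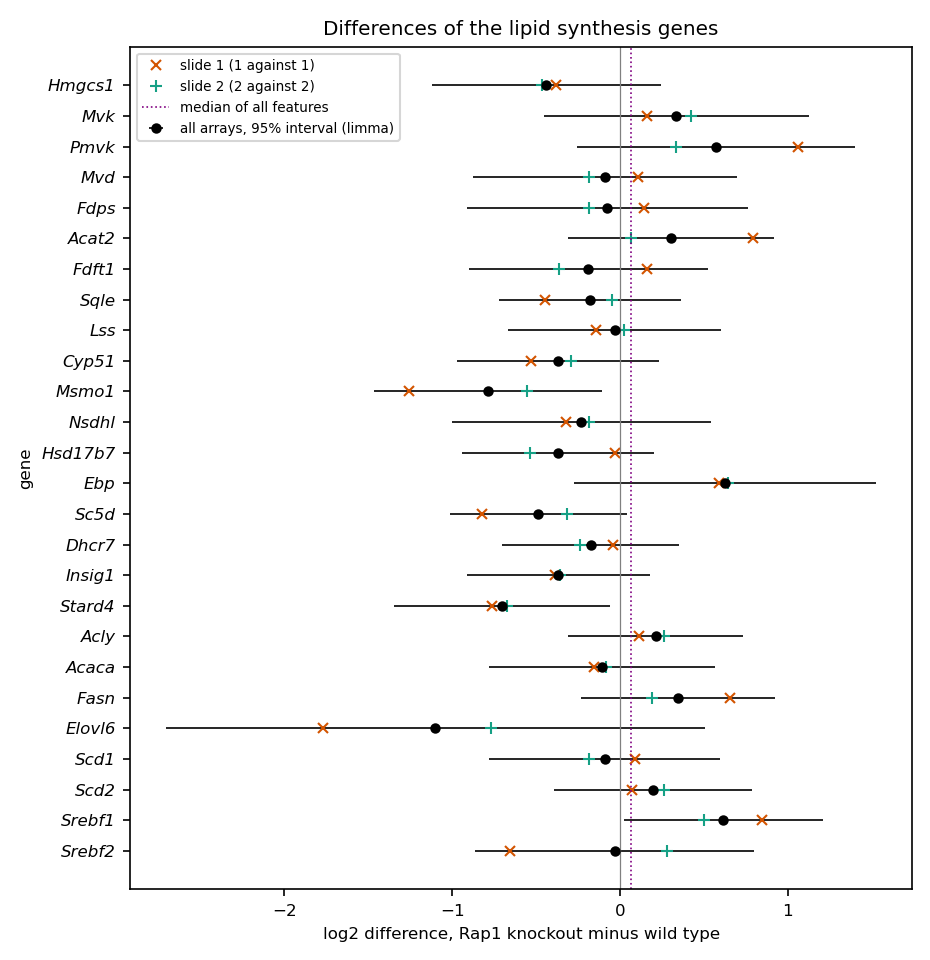
Log2 difference, knockout minus wild type, of each of the 26 genes, ordered by role, with the 95% interval of the limma fit; the differences within slide 1 and within slide 2 are marked beside each, and a dotted line marks the median of all features. Most sterol genes lie below 0, Srebf1 and Ebp lie above, the intervals of Msmo1, Stard4 and Srebf1 exclude 0, and Elovl6 has the widest interval.

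The enzymes that make squalene (Fdft1) and turn it into cholesterol leaned lower in knockout cells: 9 of the 10 had a difference below 0, with a median of -0.21, and none passed the test. Msmo1, the methylsterol oxidase that strips methyl groups from lanosterol's descendants, read 4.50, 5.43 and 4.93 on the knockout arrays, against 5.76, 5.68 and 5.78 on the wild-type arrays. The knockout arrays were all lower and more spread, with an SD of 0.46, against 0.06 for the wild-type arrays. The difference was -0.79 ± 0.29 (SE, n = 3 each; 95% interval -1.47 to -0.10; adjusted p = 0.474 by limma), -1.25 on slide 1 and -0.55 on slide 2. Sc5d, the lathosterol oxidase that adds the double bond of the B ring, read 2.79, 3.01 and 3.16 in knockout cells, against 3.62, 3.37 and 3.43 in wild-type cells. The groups did not overlap, and the difference was -0.49 ± 0.22 (SE; adjusted p = 0.497 by limma). Hsd17b7, the ketosteroid reductase that works with Msmo1 and Nsdhl in demethylation, read 1.10, 0.48 and 0.78 in knockout cells, against 1.12, 1.14 and 1.19 in wild-type cells. The groups were barely separate, since knockout array 1 lay next to the wild-type arrays. The difference was -0.37 ± 0.24 (SE; adjusted p = 0.546 by limma), -0.03 on slide 1 and -0.54 on slide 2. Its other probe differed by -0.34, with groups that did not overlap either.

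The remaining sterol enzymes overlapped between the groups. Cyp51, the lanosterol demethylase of the cytochrome P450 family, read 1.42, 1.78 and 1.12 in knockout cells, against 1.95, 1.70 and 1.78 in wild-type cells, a difference of -0.37 ± 0.25 (SE). Its 3 probes gave differences between -0.46 and -0.36. Nsdhl, the sterol dehydrogenase of demethylation, read 0.61, 1.56 and 0.69 in knockout cells, against 0.93, 1.24 and 1.38 in wild-type cells. Knockout array 2 was the highest of the 6 and the other knockout arrays were the lowest. Squalene epoxidase (Sqle), which acts on squalene, averaged 3.59 ± 0.23 in knockout and 3.77 ± 0.12 in wild-type cells (SD, n = 3 each). Dhcr7, which reduces the last double bond in one route to cholesterol, averaged 2.63 ± 0.09 in knockout and 2.81 ± 0.21 in wild-type cells. Squalene synthase (Fdft1) averaged 2.70 ± 0.44 in knockout and 2.89 ± 0.25 in wild-type cells, and its dimmer probe had a difference of the opposite sign, 0.12. Lanosterol synthase (Lss), which closes the sterol rings, averaged 0.73 ± 0.23 in knockout and 0.76 ± 0.34 in wild-type cells. For each of these 4 genes the means differed by less than the larger of the SDs. Ebp, the sterol isomerase, was the exception in sign: it read 5.28, 5.41 and 4.22 in knockout cells, against 4.68, 4.09 and 4.24 in wild-type cells. Knockout arrays 1 and 2 were above every wild-type array and knockout array 3 lay among them, with a difference of 0.63 ± 0.38 (SE; adjusted p = 0.525 by limma).

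Both genes of sterol sensing and transport were lower on every knockout array. Insig1, which retains Scap in the endoplasmic reticulum and is itself an SREBP target, read -0.31, -0.13 and -0.63 in knockout cells, against 0.08, -0.0028 and -0.04 in wild-type cells. The difference was -0.37 ± 0.23 (SE; adjusted p = 0.533 by limma), nearly the same on slide 1 (-0.39) and slide 2 (-0.36). Its second probe differed by -0.50, with overlapping groups. Stard4, a soluble carrier that moves sterol between membranes, read 1.56, 2.24 and 1.69 in knockout cells, against 2.33, 2.54 and 2.73 in wild-type cells. Knockout array 2 came closest to the wild-type arrays, and the difference was -0.70 ± 0.27 (SE; 95% interval -1.34 to -0.06; adjusted p = 0.486 by limma). The other 2 probes of Stard4 differed by -0.51 and -0.49, both with separate groups, and the difference was -0.76 on slide 1 and -0.67 on slide 2.

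The SREBP genes gave unlike values. Srebf1, which encodes SREBP-1a and SREBP-1c (not told apart by this probe), read 5.24, 5.20 and 4.63 in knockout cells, against 4.39, 4.38 and 4.44 in wild-type cells. Every knockout array was above every wild-type array, the wild-type arrays had an SD of 0.03, and the difference was 0.62 ± 0.25 (SE; 95% interval 0.02 to 1.21; adjusted p = 0.486 by limma). Srebf2, which encodes SREBP-2, read 0.87, 2.08 and 1.15 in knockout cells, against 1.52, 1.30 and 1.37 in wild-type cells. Its knockout arrays lay on both sides of the wild-type arrays, the difference was -0.03 ± 0.35 (SE), and the sign changed between slide 1 (-0.65) and slide 2 (0.28). The difference between the 2 genes' responses was not tested.

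**Figure D2:**
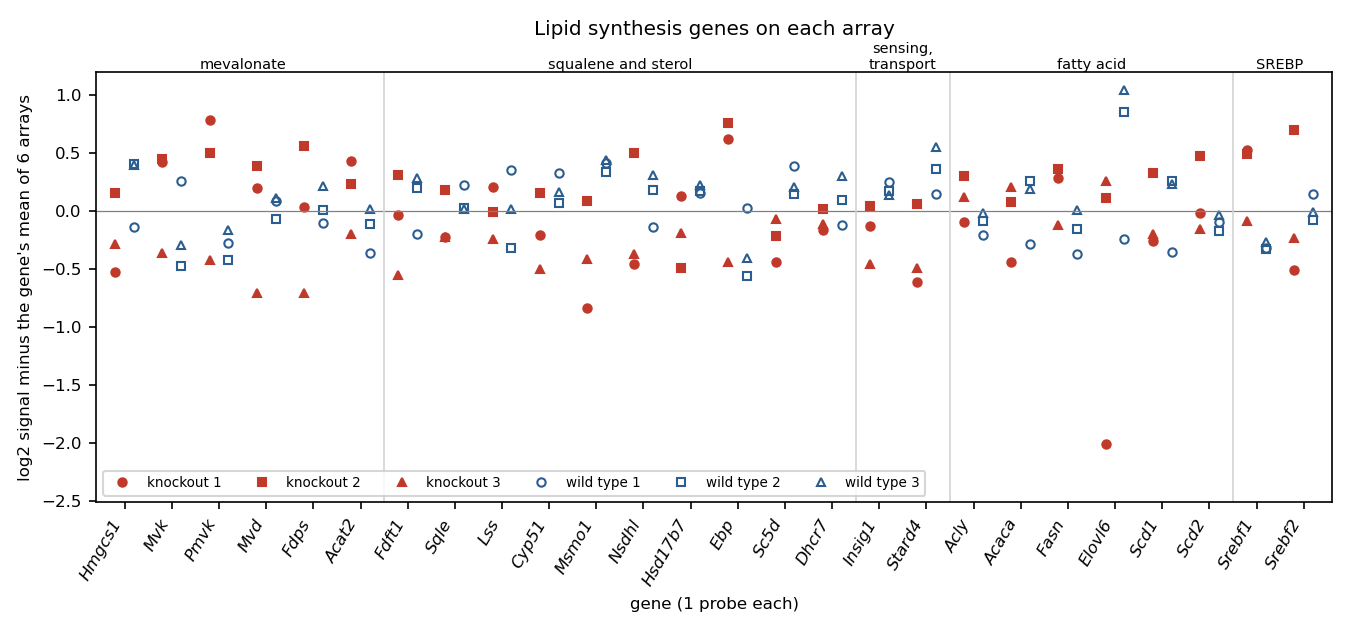
Log2 signal of each of the 26 genes on each of the 6 arrays, minus the gene's mean over the arrays, with knockout arrays left of wild-type arrays within each gene. The separate groups of Msmo1, Hsd17b7, Sc5d, Insig1, Stard4 and Srebf1 can be seen, as can the low point of knockout array 1 for Elovl6.

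The mevalonate steps split evenly, with 3 genes below 0, 3 above and a median of 0.12. Hmgcs1, the cytosolic HMG-CoA synthase and a classic SREBP target, read 3.88, 4.56 and 4.12 in knockout cells, against 4.26, 4.80 and 4.80 in wild-type cells. The groups overlapped through knockout array 2, and the difference was -0.44 ± 0.29 (SE; adjusted p = 0.544 by limma), with -0.54 at its second probe. Pmvk, phosphomevalonate kinase, read 4.91, 4.62 and 3.70 in knockout cells, against 3.85, 3.70 and 3.95 in wild-type cells. Its difference of 0.58 ± 0.35 (SE; adjusted p = 0.526 by limma) came from knockout arrays 1 and 2, with knockout array 3 level with the wild-type arrays. Mvk, mevalonate kinase, read 1.03, 1.05 and 0.24 in knockout cells, against 0.87, 0.13 and 0.32 in wild-type cells. Acat2, the cytosolic acetoacetyl-CoA thiolase, averaged -0.70 ± 0.32 in knockout and -1.01 ± 0.19 in wild-type cells (SD, n = 3 each). Mvd, the decarboxylase that yields isopentenyl diphosphate, averaged 1.54 ± 0.59 in knockout and 1.63 ± 0.10 in wild-type cells. Fdps, which makes farnesyl diphosphate for sterols and for protein prenylation, averaged 4.77 ± 0.63 in knockout and 4.84 ± 0.16 in wild-type cells. For Mvd and Fdps the knockout arrays reached both higher and lower than the wild-type arrays, and the 95% intervals of the difference (-0.88 to 0.70 and -0.91 to 0.76) leave room for changes of either sign.

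The fatty acid enzymes also split evenly, 3 below 0 and 3 above, with a median of 0.05. Fasn, the fatty acid synthase that builds palmitate, read 7.02, 7.10 and 6.62 in knockout cells, against 6.37, 6.59 and 6.75 in wild-type cells. The groups overlapped through knockout array 3, the difference was 0.35 ± 0.24 (SE; adjusted p = 0.566 by limma), and a second, dimmer probe differed by 0.43 with separate groups. Elovl6, which elongates palmitate, read 0.44, 2.56 and 2.71 in knockout cells, against 2.21, 3.30 and 3.50 in wild-type cells. Array 1 was the lowest of its group in both genotypes, and the difference of -1.10 ± 0.67 (SE; adjusted p = 0.531 by limma) became -0.37 without knockout array 1. It was -1.77 on slide 1 and -0.77 on slide 2. With slide as a block the difference was the same and the adjusted p was 0.184 (unadjusted p = 0.00872, against 0.148 without the block, by limma over all features). Acly, which supplies cytosolic acetyl-CoA from citrate, averaged 1.93 ± 0.20 in knockout and 1.72 ± 0.09 in wild-type cells (SD, n = 3 each). Acaca, the acetyl-CoA carboxylase that commits acetyl-CoA to fatty acids, averaged -5.15 ± 0.34 in knockout and -5.04 ± 0.30 in wild-type cells, and its 3 probes differed in sign (-0.11 to 0.10). Of the stearoyl-CoA desaturases, Scd1 averaged 2.76 ± 0.32 in knockout and 2.85 ± 0.35 in wild-type cells. Scd2 averaged 6.44 ± 0.33 in knockout and 6.24 ± 0.07 in wild-type cells; the 2 paralogs are similar in sequence, and cross-hybridisation between their probes was not tested.

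Single arrays set many of the values. Knockout array 2 was the highest of the 6 arrays for 11 of the 26 genes and the lowest for 1, while knockout array 1 was the highest for 3 and the lowest for 10. Knockout array 3 was the highest for none and the lowest for 5. Among wild-type arrays, array 3 was the highest for 5 and the lowest for none, array 1 the highest for 5 and the lowest for 4, and array 2 the highest for 2 and the lowest for 6. The median deviation of the 26 genes from their own means was -0.11, 0.26 and -0.24 on the knockout arrays, against -0.10, 0.05 and 0.15 on the wild-type arrays. The spread among knockout arrays was therefore wider than the gap between the groups. Sterol enzymes were at -0.19, 0.12 and -0.31 on the knockout arrays, against 0.19, 0.12 and 0.21 on the wild-type arrays, and knockout array 2 was level with wild type. Mevalonate genes were at 0.31, 0.42 and -0.39 on the knockout arrays, against -0.12, -0.09 and 0.07 on the wild-type arrays, so knockout array 3 stood opposite to the other knockout arrays. Within slides, 20 of the 26 differences had the same sign on both (12 lower, 8 higher). The share of all features with matching signs is not given here, so this count has no background to compare with. The median of the 26 differences was -0.03 on slide 1 and -0.18 on slide 2, against 0.15 and 0.05 for all features.

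**Figure D3:**
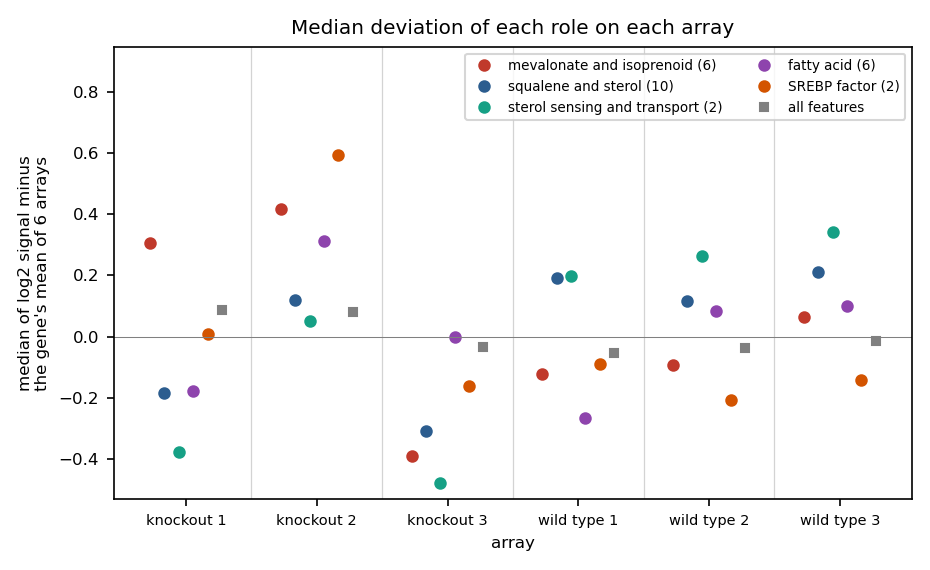
Median, over the genes of each role, of log2 signal minus the gene's mean over 6 arrays, for knockout arrays 1 to 3 and then wild-type arrays 1 to 3; squares give the median of all features. Sterol enzymes are below 0 on knockout arrays 1 and 3 and above 0 on knockout array 2 and all wild-type arrays, and mevalonate genes stand at 0.42 on knockout array 2 and -0.39 on knockout array 3.

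Genes next to these pathways gave no call in any of 4 further lists either. Of 9 other isoprenoid and sterol enzymes, 7 had a difference below 0, with a median of -0.06 and none at an unadjusted p of 0.05; Ggps1, which makes geranylgeranyl diphosphate, was the single gene with separate groups, at 0.98, 0.96 and 1.03 in knockout cells, against 0.79, 0.65 and 0.47 in wild-type cells. Of 12 genes of SREBP processing, sterol uptake and storage, 6 were below 0 and 6 above, and 3 had separate groups (17.3% of all features had). Scap, the SREBP escort, read 5.02, 4.74 and 4.43 in knockout cells, against 4.28, 4.01 and 4.12 in wild-type cells (difference 0.59 ± 0.24, SE; adjusted p = 0.486 by limma). Soat1, which esterifies cholesterol for storage, was lower, with a difference of -0.69 ± 0.32 (SE), -1.52 on slide 1 and -0.27 on slide 2. Stard3, a late endosomal sterol transporter, was higher by 0.48 ± 0.27 (SE), or 0.25 without knockout array 1. In these 3 genes knockout array 1 lay farthest from the wild-type arrays.

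Of 16 other genes of fatty acid and acylglycerol synthesis 15 were tested, 5 below 0 and 10 above, with a median of 0.12; Acacb was not above background on all arrays of either group. Mid1ip1, which activates acetyl-CoA carboxylase, read 2.30, 2.50 and 1.42 in knockout cells, against 3.35, 3.71 and 3.78 in wild-type cells. All knockout arrays were lower, with a difference of -1.54 ± 0.34 (SE; adjusted p = 0.322 by limma), larger in size than that of any of the 26 genes. Mlycd, the malonyl-CoA decarboxylase that opposes the carboxylase, was higher by 0.69 ± 0.28 (SE), and Acss2, which makes acetyl-CoA from acetate, by 0.66 ± 0.31 (SE). Both had separate groups. Of the 15 tested, 1 was lower and 3 were higher on all knockout arrays, as were 5.89% and 11.4% of all features. Of 8 factors and targets of LXR, the oxysterol receptor that induces Srebf1, 6 were above 0 and 2 below, with a median of 0.47. Among the 6, Nr1h2 differed by only 0.00028. Nr1h3 differed by 1.32 (0.05 on slide 1 and 1.96 on slide 2), with overlapping groups. Of all features 44.6% were below 0. The LXR targets below 0 were Abca1 (-0.79, with -3.00 on slide 1 and 0.32 on slide 2) and Apoe (-0.73, with -6.88 and 2.34). Whether LXR had a part in the Srebf1 values was not tested. Abcg1, a sterol exporter, read -2.39, -0.81 and -1.37 in knockout cells, against -4.87, -4.17 and -4.09 in wild-type cells (difference 2.85 ± 0.45, SE; adjusted p = 0.191 by limma). Ch25h, which makes an oxysterol, read -0.53, -0.37 and -0.63 in knockout cells, against -0.78, -2.14 and -2.61 in wild-type cells, with a difference of 0.25 on slide 1 and 1.88 on slide 2.

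**Figure D4:**
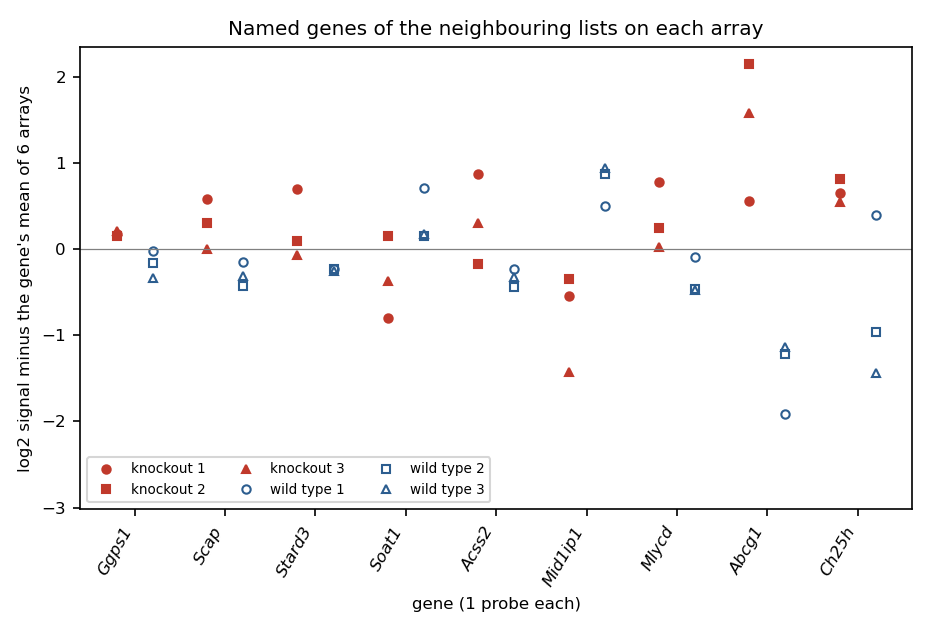
Log2 signal minus the gene's mean over 6 arrays for the 9 genes named from the neighbouring lists, with knockout arrays left of wild-type arrays within each gene. Abcg1 shows the widest separation between the groups and Mid1ip1 is the clearest gene lower in knockout cells; for Soat1, knockout array 2 lies next to the wild-type arrays.

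Markers of other cell types also stood at unlike levels on the arrays, with none past the test, and their part in the values above was not tested. Adipocytes make much of these enzymes; of 7 adipocyte markers, Adipoq, Cfd and Lep were above background on no array. Fabp4 read -0.56, 1.72 and -0.53 in knockout cells, against 1.92, 3.12 and 3.24 in wild-type cells. Plin1 read -6.52, -6.71 and -7.07 in knockout cells, and -7.73, -7.52 and -8.53 in wild-type cells. It was above background on no wild-type array and entered the test through the knockout arrays alone, so no size is given for its difference. The summed linear signal of the adipocyte markers was 0.705 to 3.38 on knockout arrays and 3.81 to 9.46 on wild-type arrays. Nearly all of that sum was Fabp4, so it describes 1 gene. For 5 epithelial markers the sum was 4.02 to 12.9 on knockout arrays and 1.94 to 3.06 on wild-type arrays, and nearly all of it was Krt18, at 2.41, 3.67 and 1.91 in knockout cells, against 1.58, 0.80 and 1.03 in wild-type cells. The other epithelial markers did not follow Krt18: Krt14 and Krt5 differed by -0.09 and -0.07, Epcam overlapped between the groups, and Cdh1 was not tested. Sums of endothelial, leukocyte and hepatocyte markers stayed at or below 0.22, and the 3 hepatocyte markers were above background on no array.

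Promoter windows (250 bases before to 50 after the start of a gene, RefSeq, build GRCm38.p6) were in the table for 21 of the 27 genes, as 26 windows; Fdft1, Fdps, Sqle, Scd1, Scd2 and Stard4 were not matched. The letters TCACNCCAC, a form of the sterol regulatory element, were found on either strand in 1 window, that of Hmgcs1, and in 1.24% of 32851 windows of all genes. The letters ATTGG, the box of the SREBP partner NF-Y (CCAAT on the opposite strand), were in 19 of the 26 windows (73.1%) and in 37.4% of all windows. GGGCGG, the box of the other partner Sp1, was also in 19 of 26 and in 35.7% of all. The E-box CACGTG, which SREBP-1 can bind, was in 4 of 26 and in 7.15% of all. Counted by gene, 18 of the 21 (85.7%) held ATTGG and 17 (81.0%) GGGCGG, against 41.1% and 38.2% of all genes. The 5 genes with separate groups and a window (Msmo1, Hsd17b7, Sc5d, Insig1, Srebf1) each held both, whether they were lower or higher in knockout cells. Most of the 21 held these letters, so they do not set the 5 apart. A match describes letters only, and no binding was measured. The Hmgcs1 match (chr13:119690204-119690232, plus strand) and the ATTGG nearest the start in each of those 5 genes, picked after their values were seen, are printed with the matched letters in capitals. The ATTGG matches are at chr8:64733619-64733643 (plus strand) for Msmo1, chr1:169969203-169969227 (minus) for Hsd17b7, chr9:42264310-42264334 (minus) for Sc5d, chr5:28071186-28071210 (plus) for Insig1 and chr11:60210487-60210511 (minus) for Srebf1.
Hmgcs1: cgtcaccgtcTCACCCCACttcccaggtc
Msmo1: gcctgtcgtaATTGGtccgccccac
Hsd17b7: ccgagccttgATTGGtcgaggtgcg
Sc5d: ccggctgctgATTGGccggctgcct
Insig1: ccctcctcccATTGGctccggcggc
Srebf1: gcggctgctgATTGGccatgtgcgc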

How the data were processed

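Cy3-labelled RNA of 3 Rap1 knockout and 3 wild-type cultures was read on Agilent arrays, per the labels' protocols. Per the file headers, spot intensity came from Agilent software (Feature Extraction, version 10.5.1.1), which had already corrected it for background, and the design uses build mm8. The deposited value table holds log2 values and was used as an alternative; its knockout columns 1, 2 and 3 followed scanner files 2, 3 and 1, its medians were 6.86 to 6.87, and the sources used here do not give its exact processing beyond naming limma (the submitters' processing notes).

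Control spots (1639 of 45018) and spots marked as outliers (74 to 120 per array) were left out, and none was saturated. Repeat spots were averaged per probe, and log2 processed signal was taken relative to each array's 75th percentile. Of 41174 probes, 25520 were retained because every array of 1 group or both had them above background. RefSeq accessions in the files were matched to a GRCm38.p6 gene table for names (23374 probes matched). Where a gene had several such probes, the brightest on average stood for it.

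The comparison used lmFit and eBayes of limma (version 3.58.1, under R 4.3.3), with 2-sided p-values adjusted by Benjamini-Hochberg over 19657 features and without a block. The same fit was also run on simulated data, whose results are not given here. Alternatives covered scaling, background correction, filters, probe choice, variance model, blocks and single arrays. Where a probe was above background on no array of a group, the fold is a bound: on each array of that group, the dimmest signal of any probe above background replaced its own signal where that was lower. The 27 genes, the neighbouring lists and the markers were chosen with earlier results of these data known. All 27 were to be named, and from each neighbouring list up to 3 genes of widest difference among those whose groups do not overlap; other marker genes, such as Dcn, Col1a2, Fabp4 and Krt14, are given for the cell types they mark. The number of arrays limits the precision.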

Additional observations from a re-analysis of the deposited data

How the results depend on the processing

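No count of the 26 genes at an adjusted p of 0.05 left 0 under any of the 19 alternatives that gave a test; slide 1 alone has 1 array a group and gave values only. Their lowest adjusted p was 0.146, for slide 2 alone. The count of all features called was 2 and became 0 with the filter on all arrays, with slide as a block, with the replicate block and when the alike wild-type arrays (2 and 3) were averaged. The count was 4 with the mean of a gene's probes, 302 on slide 2 alone, and 0 to 64 when 1 array was left out. At an unadjusted p of 0.05, none of the 26 passed with wild-type arrays 2 and 3 averaged (3.52% of all features did). None passed either without knockout array 1 (8.24% of all features did), without wild-type array 2 (3.56%) or without wild-type array 3 (3.55%). Arrays with the same replicate number did not deviate together (correlations of 0.04, 0.05 and -0.06). With 3 arrays a group, and wild-type arrays 2 and 3 so alike, these correlations cannot show whether the numbers pair the samples. With the replicate block the lowest adjusted p of the 26 genes was 0.359. With slide as a block, 4 of the 26 passed an unadjusted p of 0.05 (Msmo1, Stard4, Elovl6 and Srebf1), as did 17.7% of all features.

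The median over the genes was -0.26 under quantile normalisation, -0.24 in the value table and 0.0061 under median scaling, which moved the median of all features to 0.17. With median scaling 13 genes were below 0 and 13 above, but 18 were still below the median of all features. With no filter on dim probes the median of all features was -0.08, against -0.10 for the genes. In that setting 15 genes were below it and 11 above. Without knockout array 1, and also without knockout array 3, 16 were below it and 10 above. Under median scaling the genes with separate groups were 2 lower (Msmo1, Sc5d) and 2 higher (Acly, Srebf1), with 18.03% of all features separate. Without knockout array 2 they were 10 lower and 1 higher (28.9% of all features), and without knockout array 3 they were 5 lower and 8 higher (42.3%); fewer arrays separate more easily.

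Of 520 recomputed differences 30 changed sign, in 8 genes, all with a difference within 0.20 of 0. The cause was not tested. Blocks, the other variance model, the 2-fold minimum and the filters on dim probes left the differences of these genes as they were. The 520 therefore include values that could not change sign. Acaca came to 0.011 under quantile normalisation, 0.072 under normexp and 0.0083 in the value table, and Scd2 to -0.000214 under quantile normalisation. Under median scaling Fdps was 0.030, Lss 0.074, Mvd 0.017, Scd1 0.014 and Srebf2 0.074. On slide 1 Fdft1 was 0.16, Fdps 0.14, Mvd 0.11 and Scd1 0.092, and on slide 2 Lss was 0.025 and Srebf2 0.28. Scd1 was 0.0084 with wild-type arrays 2 and 3 averaged, and Srebf2 0.10 with the mean of its probes. Leaving out 1 array gave -0.28 to 0.086 for Acaca, -0.39 to 0.044 for Fdft1, -0.37 to 0.26 for Fdps, -0.20 to 0.14 for Lss, -0.30 to 0.25 for Mvd, -0.29 to 0.017 for Scd1 and -0.39 to 0.22 for Srebf2.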
